A study of Mus musculus with 16 samples.

Results

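The 83 genes described here are the nuclear genes for subunits of the mitochondrial respiratory chain and ATP synthase, among 24411 genes counted in mouse muscle stem cells (MuSCs). Membership follows from the gene symbol and uses no measured value. Complex I had 36 genes (Ndufa, Ndufb, Ndufc, Ndufs and Ndufv), complex II had 4 (Sdha to Sdhd), complex III had 8 (Uqcr), complex IV had 18 (Cox4 to Cox8) and complex V had 17 (Atp5). The symbols miss a few subunits, such as Cyc1 of complex III and Ndufab1 of complex I. They also take in Atp5s and Atp5sl, which are not structural subunits of the enzyme, and Ndufa4, which now counts as a subunit of complex IV.

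The study deleted TRF2, a protein that binds and protects telomeres, in MuSCs, and asked how these cells are kept as stem cells and how they respond to injury. TRF2-floxed mice on a C57BL/6 background carried Pax7CreERT2, so that tamoxifen removed the floxed sequence only in cells that express Pax7 (TRF2 MuSC-cKO, here cKO). Tamoxifen was first given at 8 to 10 weeks of age, at 3 mg per 20 g of body weight, every other day for 7 administrations. Controls are labelled wild type, and the labels do not say whether they carried Cre or received tamoxifen. MuSCs were sorted from uninjured muscle or at 3 days post injury (DPI) with 10 µl of notexin in the tibialis anterior, a snake venom toxin that kills myofibers. The 4 groups, control uninjured, cKO uninjured, control 3 DPI and cKO 3 DPI, held 4 libraries each. The labels number them as replicates without saying that each came from a separate animal. The paper reports biological replicates for all its experiments, without tying this to single libraries. The p-values therefore measure only the spread between these libraries, which may be partly technical.

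The respiratory chain sits in the inner mitochondrial membrane. Complexes I and II take electrons from NADH and succinate, complexes III and IV pass them on to oxygen, and complex V uses the resulting proton gradient to make ATP. Most subunits are encoded in the nucleus and the remainder in mitochondrial DNA, whose genes were not analysed here. Quiescent MuSCs are known for few mitochondria and a low rate of respiration, and both rise when the cells are activated.

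The 16 libraries held 620406 to 1351095 estimated counts, so the members together had between 0.176% and 0.462% of a library and many had few counts. The cKO 3 DPI library 3 stood apart. It had counts in 15387 genes, against 19996 to 21879 in the others, and in 43 of the 83 members, against 75 to 82 in the others. The targeted gene, Terf2, was at 66.3 to 94.5 CPM (counts scaled to a common library total) in control and 27.2 to 58.7 CPM in cKO uninjured MuSCs, with no overlap. At 3 DPI it was at 35.5 to 48.6 CPM in control and 21.9 to 89.7 CPM in cKO libraries, and 3 of the 4 libraries labelled cKO lay above every control. The count is summed over the whole gene, so it does not read the floxed sequence alone, and the genotype at 3 DPI rests on the labels.

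**Figure D1:**
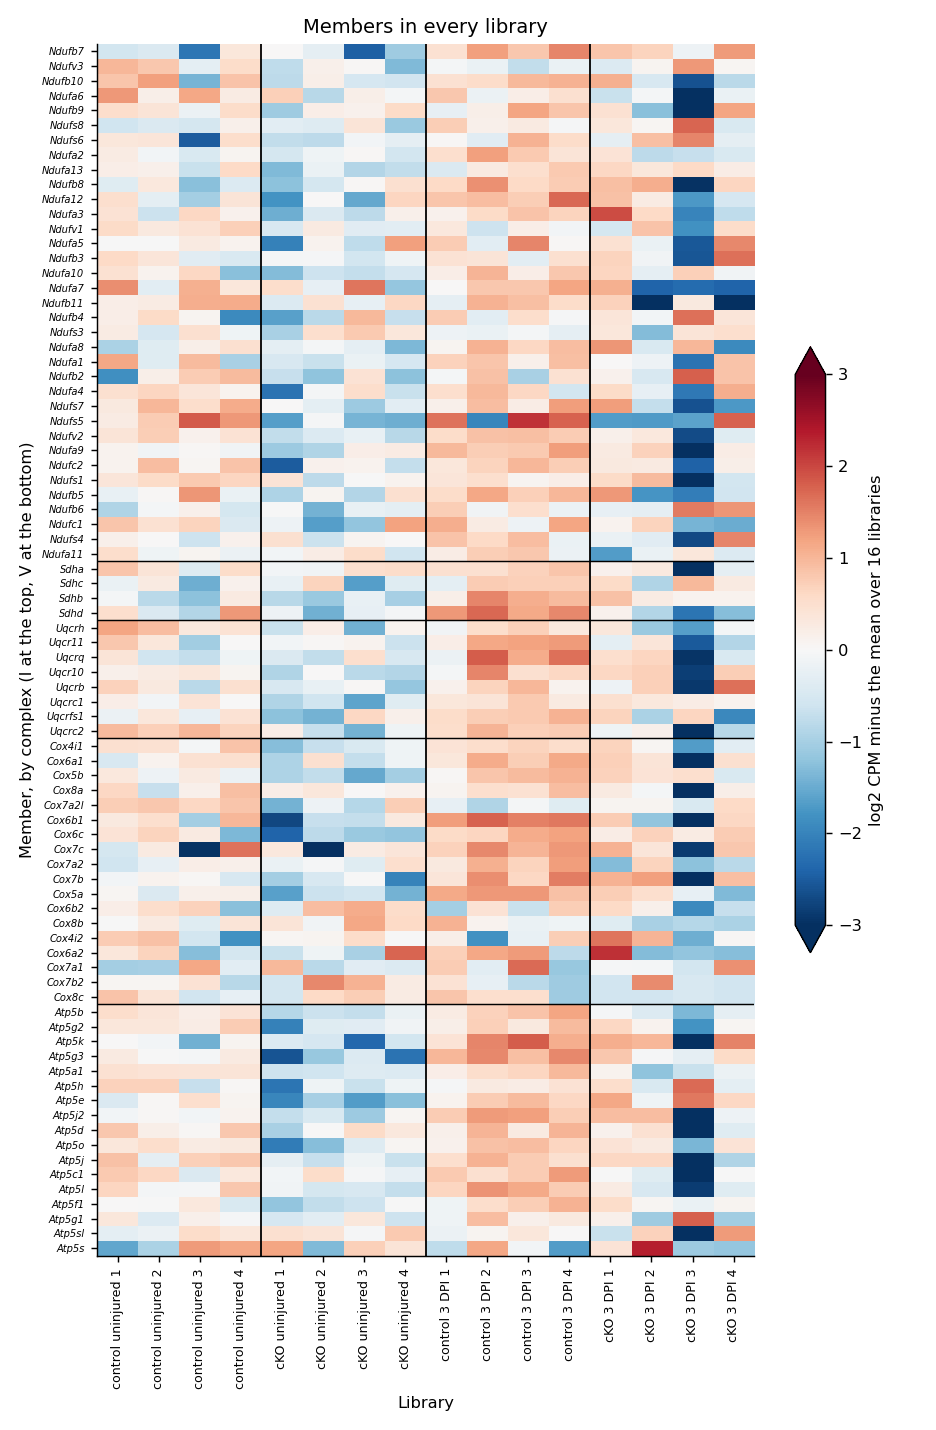
Members (82 of the 83, grouped by complex from top to bottom) in the 16 libraries (columns). Colour is log2 CPM minus the member's mean over the 16 libraries, and the scale ends at 3 in either direction. The 4 cKO uninjured libraries are mostly below the mean, the 4 control 3 DPI libraries mostly above it, and cKO 3 DPI library 3 is at the low end for many members, with a count in only 43 of the 83.

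Promoter sequence is shown for 5 members named in the results below, taken from the RefSeq promoter table (build GRCm38.p6) and ending where the gene starts in GENCODE or RefSeq, whichever lies further upstream. Atp5b, Atp5g3 and Atp5l were lower in every cKO library than in every control library in both injury states, and Uqcrh was lower in this way in uninjured MuSCs. Atp5e was the member called higher after injury in cKO MuSCs, a call that rests on few counts in uninjured libraries. The windows lie at chr10:128083123-128083272 (plus strand) for Atp5b, chr2:73911327-73911476 (minus strand) for Atp5g3, chr4:116075072-116075221 (minus strand) for Uqcrh, chr2:174464106-174464255 (minus strand) for Atp5e and chr9:44920743-44920992 (minus strand) for Atp5l. Capitals mark matches to a motif searched for, on either strand.
Atp5b: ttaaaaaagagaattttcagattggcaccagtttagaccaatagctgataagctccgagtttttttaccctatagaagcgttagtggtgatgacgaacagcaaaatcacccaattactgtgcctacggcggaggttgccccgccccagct
Atp5g3: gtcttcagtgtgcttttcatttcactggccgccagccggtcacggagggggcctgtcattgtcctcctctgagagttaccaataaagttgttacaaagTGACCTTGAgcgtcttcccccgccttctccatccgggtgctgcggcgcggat
Uqcrh: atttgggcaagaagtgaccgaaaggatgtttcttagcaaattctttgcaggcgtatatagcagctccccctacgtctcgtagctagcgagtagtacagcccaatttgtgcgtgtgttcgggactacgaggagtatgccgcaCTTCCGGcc
Atp5e: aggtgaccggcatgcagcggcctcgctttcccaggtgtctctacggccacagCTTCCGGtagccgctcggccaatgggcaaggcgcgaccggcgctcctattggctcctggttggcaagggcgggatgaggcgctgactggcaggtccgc
Atp5l: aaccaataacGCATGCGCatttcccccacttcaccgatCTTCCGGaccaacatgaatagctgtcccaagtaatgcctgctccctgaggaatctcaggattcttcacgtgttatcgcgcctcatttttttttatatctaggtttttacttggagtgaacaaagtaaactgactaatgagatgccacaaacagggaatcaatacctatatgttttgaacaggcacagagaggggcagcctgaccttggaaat
The motifs were GCATGCGC for NRF1 and CCGGAAG for GABPA, 2 activators of respiratory chain genes, AAGATGGCG for YY1 and TCAAGGTCA for ERRA. The letters of GABPA and YY1 can share AAG, and those of NRF1 can match both strands of overlapping positions. The marked match is to ERRA in Atp5g3, 52 bases before the RefSeq start, and to GABPA in Uqcrh, 10 bases before it, and in Atp5e, 102 bases before it. In Atp5l the first match is to NRF1 at 240 bases before the start and the second is to GABPA at 212, and a further GABPA match lies 24 bases after the start, outside the stretch shown. The Atp5b window held none of these motifs. For 69 of the 83 members the table held a window from 250 bases before to 50 bases after the start, 75 windows in all. GABPA letters were in 21.3% of these windows and 8.86% of all 32851 windows, NRF1 letters in 13.3% and 2.71%, YY1 letters in 12.0% and 1.4%, and ERRA letters in 2.67% and 0.423%. A match describes the sequence and not binding.

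In uninjured MuSCs, transcripts of the respiratory chain were lower in cKO than in control libraries in complexes I, III, IV and V, while the ranges of complex II overlapped. The members summed to 3691, 3359, 2954 and 3611 CPM in the control and 1605, 2136, 2077 and 2343 CPM in the cKO libraries. Every cKO library lay below every control library, and the mean of the cKO sums was 0.599 of the control mean. As a share of all counts, which uses no scaling factor, the members took 0.278% to 0.306% in control and 0.176% to 0.234% in cKO libraries, again with no overlap. The scaling factors were 0.782 to 0.968 in control and 1.01 to 1.13 in cKO libraries. They raised control and lowered cKO values, so the gap was wider in CPM than in shares. RNA from bulk cells cannot tell fewer cells of a type from less RNA per cell.

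On the CPM scale, complexes I, III, IV and V each separated between genotypes. Complex V summed to 1166 to 1398 CPM in control and 553 to 851 CPM in cKO libraries, complex I to 909 to 1056 and 504 to 673 CPM, complex III to 266 to 371 and 143 to 184 CPM, and complex IV to 497 to 681 and 229.6 to 449 CPM. None of these ranges overlapped. The ratio of the cKO mean to the control mean was 0.558 for complex V, 0.622 for complex I, 0.537 for complex III and 0.586 for complex IV. Complex II, which is also an enzyme of the TCA cycle, summed to 286, 223, 116 and 289 CPM in control and 169, 189, 205 and 221 CPM in cKO libraries, so its ranges overlapped and its ratio was 0.857. The overlap rested on control library 3, the lowest control library for each of the 4 Sdh genes. Without it, control libraries lay at 223 to 289 CPM, with no overlap and a ratio of 0.737, while shares of all counts still overlapped, at 0.0192% to 0.0237% in control and 0.0186% to 0.0221% in cKO libraries. In the rescaled table, where counts are divided by gene length, complex III overlapped, with its lowest control library at 864 and its highest cKO library at 870.1. There complex II averaged 301 ± 11.1 (SD, n = 4) in cKO and 284 ± 95.2 (SD, n = 4) in control libraries, so its direction turned with the scale. The ratios of the complexes were not tested against each other.

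**Figure D2:**
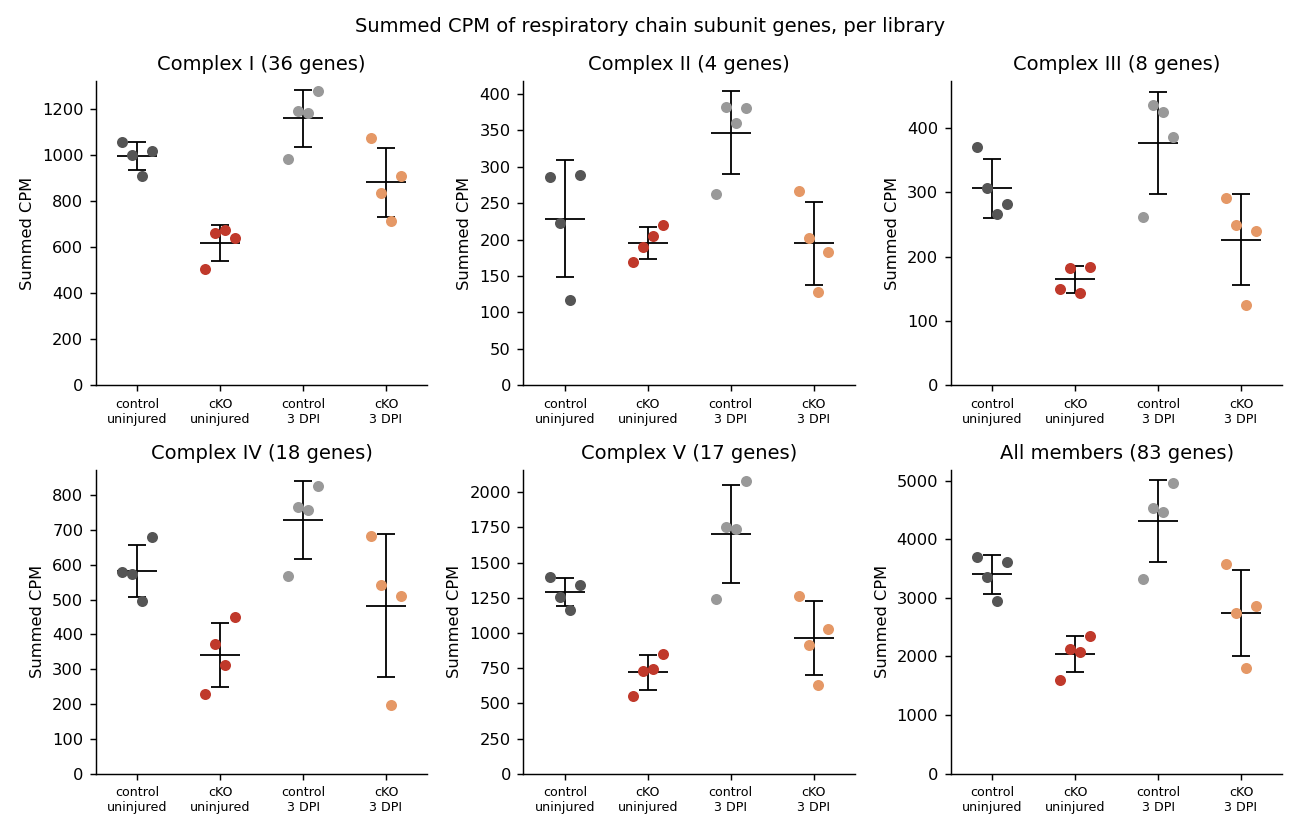
Summed CPM per library (y axis, from 0) for each complex and for all 83 members. Points are libraries, and the bar and whiskers are the mean and SD of 4 libraries. In uninjured MuSCs the cKO points lie below the control points in every panel but that of complex II. At 3 DPI the lowest cKO point in every panel is library 3.

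Of the 83 members, 68 passed the filter on low counts in this comparison. By edgeR's quasi-likelihood test, at an adjusted p under 0.02 and a fold change over 1.5, 5 members fell and 0 rose in cKO MuSCs, while over all 14048 genes tested 2.63% were called lower and 0.584% higher. At an unadjusted p under 0.05, 23 members were lower and 0 higher, against 10.5% and 8.98% of all genes. Limma and DESeq2 also called 0 members higher, where they called 1.12% and 0.812% of all genes. DESeq2 called 6 lower (3.62% of all genes), among them all 5 of these, of which 4 are described below. Limma called 5 lower (1.01% of all genes), of which 2 were shared (Atp5a1 and Atp5b). The fitted log2 fold change was below 0 in 57 of the 68 members (83.8%) and in 46.0% of all genes, and its median was -0.53 in the members and 0.058 over all genes. The median was -0.50 in complex I, -0.20 in complex II, -0.76 in complex III, -0.65 in complex IV and -0.81 in complex V.

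By adjusted p, though not by size, the first members that fell encode the catalytic head of ATP synthase. Atp5b (chr10:128083273-128090391, plus strand, GRCm38), which encodes the beta subunit that forms ATP, was at 398, 354, 319 and 366 CPM in control and 152, 177, 168 and 240 CPM in cKO libraries. The highest cKO library lay below the lowest control. Its fitted log2 fold change was -0.84 ± 0.19 (SE, adjusted p = 0.00422, edgeR). Atp5a1, the alpha subunit that alternates with beta in the head, was at 303, 291, 287 and 288 CPM in control and 141, 144, 166 and 165 CPM in cKO libraries. It had little spread within groups, and its log2 fold change was -0.80 ± 0.19 (adjusted p = 0.00571, edgeR). Atp5g3 (chr2:73908447-73911326, minus strand) is 1 of 3 genes for the proton-carrying ring subunit. It was at 67.0, 54.9, 52.3 and 66.3 CPM in control and 7.10, 23.9, 40.1 and 9.53 CPM in cKO libraries. The control libraries were alike and the cKO libraries spread widely below them, with a log2 fold change of -1.46 ± 0.37 (adjusted p = 0.0113, edgeR).

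A subunit of complex IV also fell. Cox4i1 (chr8:120668222-120674207, plus strand), the widely expressed isoform of the largest nuclear subunit of cytochrome c oxidase, was at 162, 160, 110 and 211 CPM in control and 46.2, 70.6, 83.01 and 105 CPM in cKO libraries. Its ranges came close but did not overlap, and its log2 fold change was -0.96 ± 0.23 (adjusted p = 0.00812, edgeR).

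**Figure D3:**
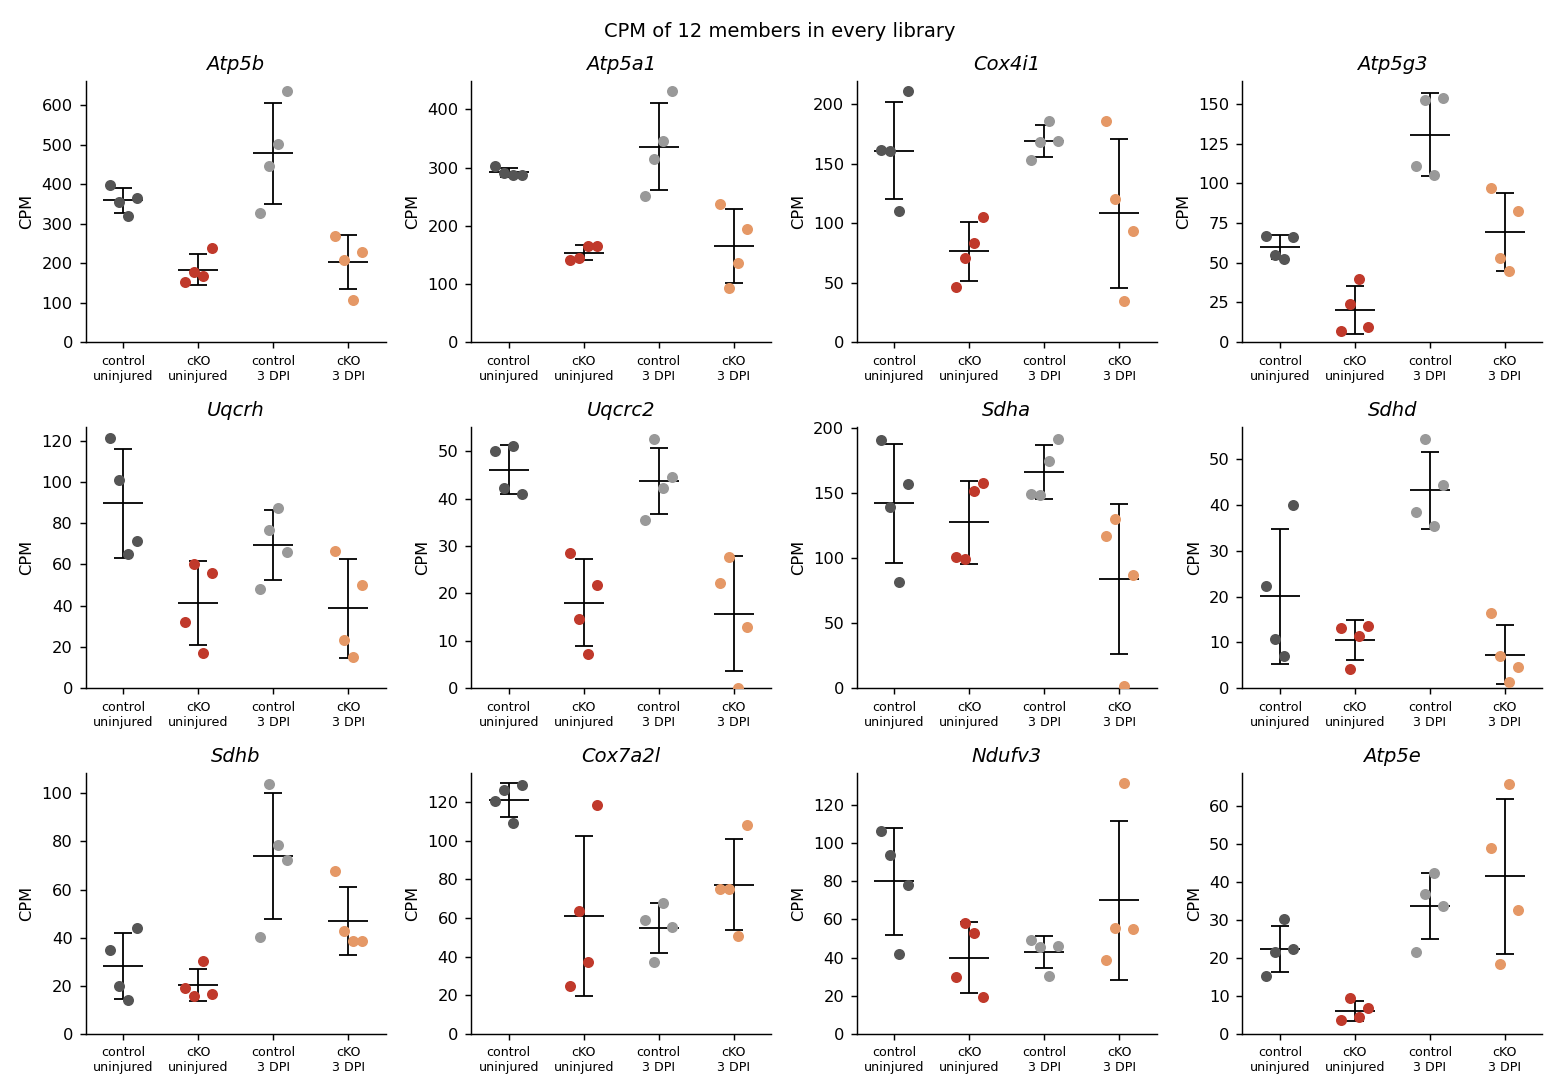
CPM of 12 members in every library (y axes from 0). Points are libraries, and the bar and whiskers are the mean and SD of 4 libraries. Atp5b and Atp5a1 lie lower in all cKO than in all control libraries in both injury states, Sdha overlaps between genotypes in uninjured MuSCs, and Cox7a2l is lower in all control 3 DPI than in all control uninjured libraries, while Ndufv3 is lower on average with 1 uninjured library overlapping.

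In 17 of the 68 tested members every cKO library lay below every control library, and in 0 every one lay above, where 9.18% and 3.43% of all genes did so. Some of the tested ones, such as Atp5e with 17 to 26 counts in control and 3 to 9 in cKO libraries, passed the filter through control libraries. Such members cannot by themselves support a fall. Counting members below the filter, the separated members were 19 of 83. Besides the 5 called, the 19 were Ndufv1 and Ndufv2 at the NADH-binding end of complex I, Ndufs7 and Ndufs5, the core subunits Uqcrc1 and Uqcrc2 and the small subunits Uqcrh and Uqcr10 of complex III, Cox5a and Cox5b of complex IV, and Atp5e, Atp5g2, Atp5l and Atp5o of complex V. Uqcrc2 was at 50.03, 42.3, 51.2 and 41.0 CPM in control and 28.4, 14.5, 7.16 and 21.8 CPM in cKO libraries (log2 fold change -1.22 ± 0.37, adjusted p = 0.0434, edgeR). Uqcrh had a log2 fold change of -0.98 ± 0.29 (adjusted p = 0.0395, edgeR). Neither passed the threshold of 0.02.

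Other landmark subunits gave smaller estimates. Ndufs1, the iron-sulfur core subunit of complex I, was at 55.4, 64.8, 74.4 and 67.3 CPM in control and 56.8, 23.9, 41.5 and 44.9 CPM in cKO libraries, with 1 cKO library inside the control range. Sdha, the flavoprotein that oxidises succinate, was at 191, 140, 81.4 and 157 CPM in control and 101, 99.7, 152 and 158 CPM in cKO libraries. These values were intermixed, and the sign of the Sdha estimate changed with the processing. Sdhb, the iron-sulfur subunit beside it, was at 34.8, 19.8, 13.9 and 43.9 CPM in control and 18.9, 15.6, 30.1 and 16.3 CPM in cKO libraries, and also overlapped. Uqcrfs1, the Rieske iron-sulfur protein, was at 16.3 to 28.3 CPM in control and 6.23 to 31.5 CPM in cKO libraries. The 2 members with the smallest p among those with an estimate above 0, Atp5sl and Cox6b2, a testis isoform, were not called.

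Members were short genes, with a median transcript length of 731 bases against 2954 bases over the genes tested. Among the 3486 shortest genes, of up to 2032 bases, which held 63 tested members, the median log2 fold change was -0.09 over all genes and -0.54 over the members. With the trend over length removed from each library, the median of the members was -0.28 against 0.026 over all genes, and 2 of 68 members, Atp5a1 and Atp5b, were called, about the share of all genes (2.51%). The call also rested on single libraries, since leaving out control library 1 left 0 members called, while calls over all genes also fell, to 1.43%.

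Markers of MuSCs moved with this result. Of 9 such markers, 6 fell in cKO uninjured MuSCs, among them Vcam1 and Itga7, whose proteins served in the sort, and the list summed to 3457 to 5362 CPM in control and 1879 to 2863 CPM in cKO libraries. Markers of macrophages and other leukocytes summed to 78.0 to 146.5 CPM and 129 to 206 CPM, with 0 of 7 tested called. Markers of myofibers, which are rich in mitochondria, summed to 247 to 303 CPM and 215 to 294 CPM, with 0 of 6 tested called. Of the other lists, fibroadipogenic progenitors had 1 of 4 tested markers higher and 1 lower, pericytes and smooth muscle had 1 of 4 higher, and endothelial, Schwann and erythroid markers had 0 called of 4, 3 and 1. The part of these in the lower respiratory chain transcripts was not tested.

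Levels can be compared between members only per length, which the rescaled table allows (values scaled to a common total, here called units). In control uninjured MuSCs the highest were Cox4i1 at 541 ± 92 (SD, n = 4), Atp5b at 439.5 ± 28.3, Uqcrh at 433 ± 127 and Atp5g2 at 423 ± 46. Uqcrh, Atp5b and Atp5g2 differed by less than their spread, and Cox4i1 overlapped with each of them. Over all 16 libraries the 2 highest members were Ndufb7 and Ndufv3 in complex I, Sdha and Sdhc in complex II, Uqcrh and Uqcr11 in complex III, Cox4i1 and Cox6a1 in complex IV, and Atp5b and Atp5g2 in complex V. Counts divided by annotated length named 8 of these 10, with Ndufa6 in place of Ndufb7 and Sdhb in place of Sdhc. On this scale the members summed to 9449 ± 619 in control and 6888 ± 812 in cKO uninjured libraries, although the edgeR test on this table called 0 of 80 members lower, and 0.0654% of all genes.

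**Figure D4:**
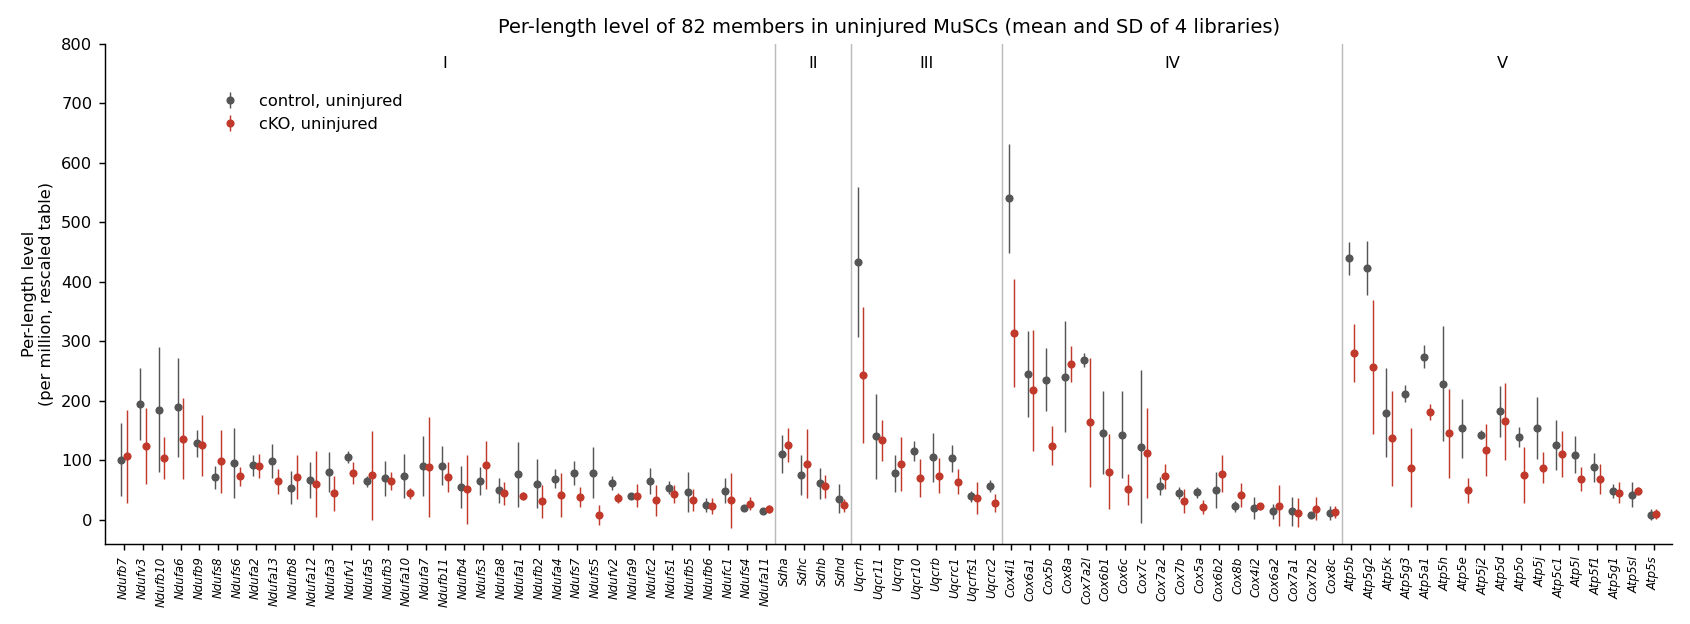
Per-length level of 82 of the 83 members in uninjured MuSCs, from the rescaled table (units scaled to a common total). Dots and lines are the mean and SD of 4 libraries, control in grey and cKO in red, with complexes I to V from left to right and members ordered by their mean over all libraries. Cox4i1, Uqcrh, Atp5b and Atp5g2 are the highest in control, and the tissue isoforms at the right of complex IV are near 0.

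Isoform pairs of complex IV were set side by side. Cox4i1 was at 541 ± 92 and Cox4i2, the hypoxia and lung isoform, at 20.1 ± 18.6 units in control uninjured MuSCs. Cox6a1 was at 246 ± 72 and its muscle isoform Cox6a2 at 13.98 ± 12.9. Cox7a2 was at 56.8 ± 15.8 and its muscle isoform Cox7a1 at 14.2 ± 23.9. Cox8a was at 241 ± 93 and the muscle isoform Cox8b at 22.7 ± 9.3. These 4 minor isoforms stayed under 42 units as group means in all 4 groups. A further pair was closer, with Cox6b1 at 146 ± 70 and the testis isoform Cox6b2 at 50.1 ± 29.7 in control, and 81.2 ± 63.4 and 77.4 ± 31.2 in cKO uninjured MuSCs. Among the 3 ring genes of ATP synthase, which encode the same mature protein, Atp5g2 was at 423 ± 46, Atp5g3 at 212 ± 14 and Atp5g1 at 47.7 ± 11.7. In cKO uninjured MuSCs they were at 257 ± 112, 87.9 ± 65.6 and 45.9 ± 17.7, so the 2 abundant genes were lower and Atp5g1 overlapped with control.

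At 3 DPI the members were again mostly lower in the libraries labelled cKO, but none passed the test. They summed to 3319, 4526, 4464 and 4955 CPM in control and 3579, 2746, 1799 and 2869 CPM in cKO libraries, with 1 cKO library above the lowest control. Of 72 members tested, 0 were called, and 0 of all 14559 genes were called in either direction (0%). At an unadjusted p under 0.05, 10 members were lower and 0 higher, against 3.58% and 5.78% of all genes. Limma called 3 members lower (Ndufa7, Ndufs5 and Sdhd), where it called 0.124% of all genes, and DESeq2 called 1 (Atp5b), where it called 0.117%. The median log2 fold change was -0.67 in the members and 0.001 over all genes, and the estimate was below 0 in 57 of 72 members (79.2%) and 49.9% of all genes.

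Every complex had a median below 0, at -0.44 for complex I, -0.78 for complex II, -0.83 for complex III, -0.73 for complex IV and -0.69 for complex V. Complex II had overlapped between genotypes in uninjured MuSCs. At 3 DPI it summed to 262.5, 382, 361 and 381 CPM in control and 266, 202, 128 and 183 CPM in cKO libraries, with 1 cKO library just above the lowest control. Complex V summed to 1240, 1752, 1736 and 2083 CPM in control and 1265, 918, 633 and 1030 CPM in cKO libraries, also with 1 overlap.

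Atp5b and Sdhd had the smallest p at 3 DPI, and Atp5a1 was again separate between genotypes. Atp5b was at 327, 447, 503 and 635 CPM in control and 270, 209, 108 and 227 CPM in cKO libraries, with no overlap (log2 fold change -1.19 ± 0.29, adjusted p = 0.452, edgeR). Atp5a1 was at 252, 315, 345 and 432 CPM in control and 237, 93.4, 136 and 194 CPM in cKO libraries, with no overlap (-0.98 ± 0.29, adjusted p = 0.452). Sdhd, a membrane anchor of complex II, was at 38.6, 54.5, 35.4 and 44.4 CPM in control and 16.4, 6.92, 1.24 and 4.66 CPM in cKO libraries, which rest on 14, 6, 1 and 4 counts (-2.51 ± 0.63, adjusted p = 0.452). In the opposite direction the smallest p belonged to Ndufv3, an accessory subunit of complex I, at 0.76 ± 0.42, and Cox7a2l, placed in complex IV by its symbol, at 0.54 ± 0.33, both uncalled. Ndufv3 was at 30.5 to 49.4 CPM in control and 38.6, 55.4, 131 and 54.8 CPM in cKO libraries, highest in library 3.

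In 13 of the 72 tested members every cKO library lay below every control library, where 4.87% of all genes did so. Some of these, such as Sdhd with 1 to 14 counts in cKO libraries, passed the filter through control libraries. Such members cannot by themselves support a fall. Of the 67 members tested in both comparisons, 6 were below control in this way in both injury states, where 1.64% of all genes tested in both were. Over all 83 members, 7 were below control in this way both in uninjured MuSCs and at 3 DPI: Atp5a1, Atp5b, Atp5g3, Atp5l, Cox5a, Ndufv2 and Uqcrc2. The 2 comparisons share no library, but 2 of the codes in the library descriptions, whose meaning is not given, occur in both, each within 1 genotype. In the uninjured comparison no code is found in both genotypes, so code and genotype cannot be told apart there. Atp5g3 was at 111, 153, 105 and 154 CPM in control and 97.0, 53.0, 44.6 and 82.7 CPM in cKO libraries at 3 DPI. Ndufv2, an iron-sulfur subunit of complex I, was at 43.2, 56.4, 57.0 and 51.8 CPM in control and 32.7, 36.9, 2.48 and 22.1 CPM in cKO libraries.

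Values at 3 DPI changed when libraries were left out. Without cKO library 3 the median of the members was -0.45, and among the 2 control and 2 cKO libraries whose descriptions share a code, the only one found in both genotypes, it was -0.26. Leukocyte markers summed to 5013 to 6395 CPM in control and 2070 to 5790 CPM in cKO libraries at 3 DPI, although the sort had excluded cells positive for CD45 and CD11b, and Ptprc, the gene of CD45, was at 186 to 285 CPM and 100.3 to 163.6 CPM. MuSC markers summed to 798 to 1143 CPM and 443 to 619 CPM, and myofiber markers to 320 to 407 CPM and 351 to 515 CPM. The part of these in the difference was not tested.

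**Figure D5:**
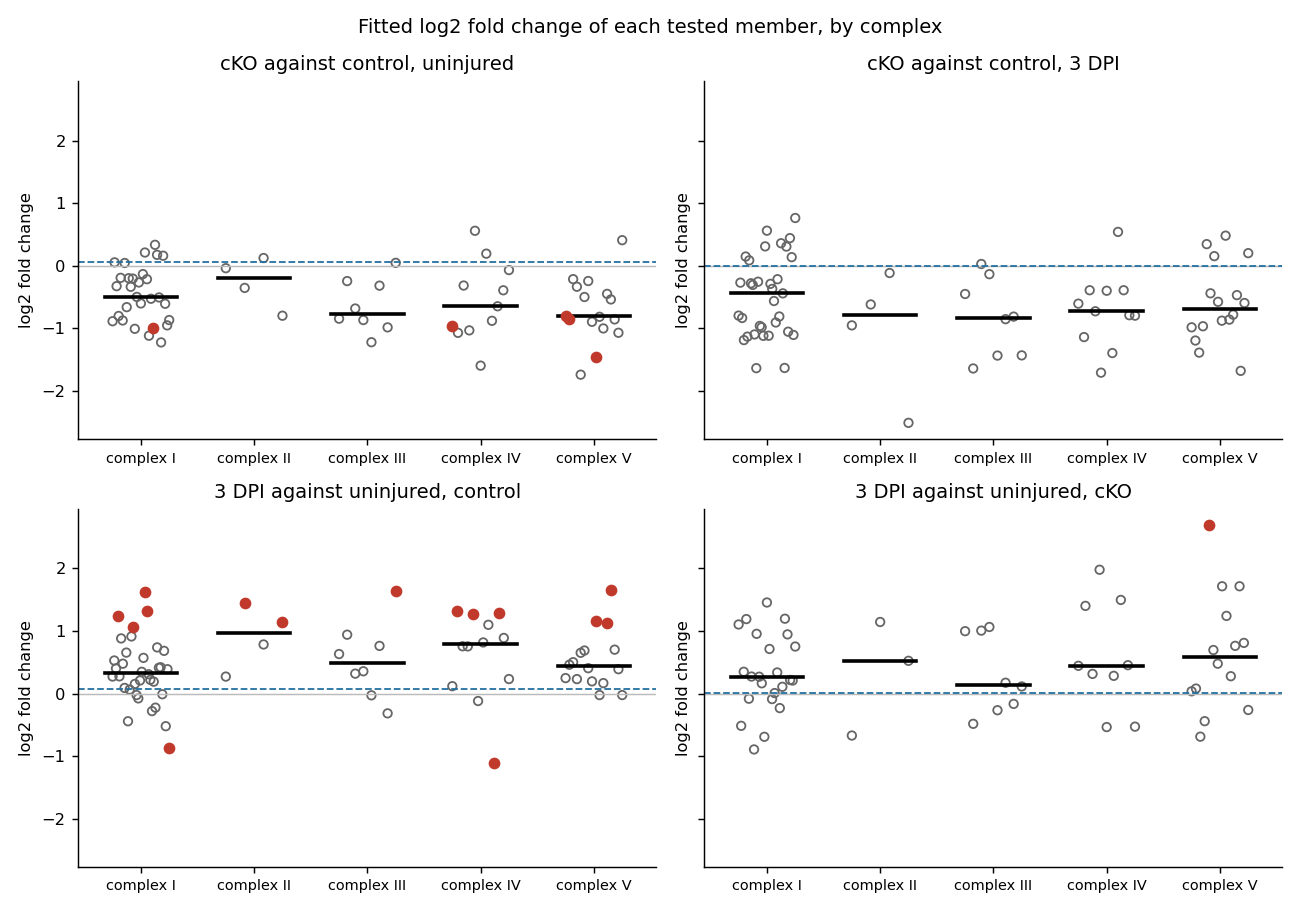
Fitted log2 fold change of each tested member, by complex, in 4 comparisons. Filled red points were called, open points were not, thick lines are the median of a complex and the dashed line is the median of all genes tested. Medians are below the dashed line in all 5 complexes in both genotype comparisons and above it in both injury comparisons, and 13 members are called higher after injury in control MuSCs.

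After injury, the control libraries held more respiratory chain transcripts on average, and their leukocyte markers rose too, as given below. The mean sum over the members was 4316 ± 700 CPM (SD, n = 4) at 3 DPI and 3404 ± 332 CPM in uninjured MuSCs, although 3 DPI library 1 lay within the uninjured range. Of 74 members tested, 13 rose and 2 fell, where 10.8% of all 15356 genes were called higher and 9.46% lower. Limma called 10 members higher and 2 lower, against 11.6% and 9.05% of all genes, and DESeq2 called 11 and 2, against 10.1% and 10.2%. The estimate was above 0 in 81.1% of the members and 53.8% of all genes, with a median of 0.41 against 0.066. By complex the median was 0.33 for complex I, 0.97 for complex II, 0.49 for complex III, 0.78 for complex IV and 0.43 for complex V.

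Members that rose came from all 5 complexes. In complex V, Atp5g3 rose from 67.0, 54.9, 52.3 and 66.3 CPM in uninjured to 111, 153, 105 and 154 CPM in 3 DPI libraries (1.16 ± 0.22, adjusted p = 4.1e-05, edgeR). Atp5k, the small membrane subunit e, rose from 5.81 to 21.4 CPM to 26.2 to 75.7 CPM (1.66 ± 0.36, adjusted p = 0.000317, edgeR), and Atp5j2 also rose. In complex II, Sdhb rose from 13.9 to 43.9 CPM to 40.1 to 104 CPM, with 1 library in the overlap (1.44 ± 0.31, adjusted p = 0.000285, edgeR), and Sdhd also rose. The others were Ndufb7 (1.62 ± 0.35), Ndufa9, Ndufb8 and Ndufa12 in complex I, Uqcrq (1.64 ± 0.39), a small subunit of complex III, and Cox6b1 (1.28 ± 0.31), Cox7b and Cox5a in complex IV. Atp5b and Atp5a1, which were lower in cKO MuSCs, were not called here.

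The 2 members that fell in control MuSCs were Cox7a2l and Ndufv3. Cox7a2l was at 121, 126, 109 and 129 CPM in uninjured and 58.7, 37.0, 67.9 and 55.1 CPM in 3 DPI libraries, with no overlap (-1.11 ± 0.23, adjusted p = 0.000134, edgeR). Ndufv3 was at 106, 93.6, 41.9 and 78.0 CPM in uninjured and 49.4, 45.7, 30.5 and 46.1 CPM in 3 DPI libraries, with 1 uninjured library among them (-0.87 ± 0.27, adjusted p = 0.0121, edgeR).

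These calls moved with the processing and with a left-out library. The rise was called for 6 of 74 members with the length trend removed (9.91% of all genes), 4 of 80 in the rescaled table (6.06%), 7 of 76 without control 3 DPI library 2 (8.77%) and 1 of 74 with all 16 libraries in 1 fit (5.12%). These counts were near or below the shares of all genes. In the same comparison all 9 MuSC markers fell and all 9 tested leukocyte markers rose, with a median log2 fold change of 5.39, and 2 of 8 tested myofiber markers rose. Among 6 tested markers of fibroadipogenic progenitors 4 rose and 1 fell, with a median of 1.61. Whether the respiratory chain transcripts came from MuSCs or from other cells in the samples was not tested.

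In cKO MuSCs, 1 of 57 tested members was called higher after injury and 0 lower, where 2.43% of all 14578 genes were called higher and 1.61% lower. The member was Atp5e, the epsilon subunit of the ATP synthase stalk, at 3.55, 9.35, 4.29 and 6.81 CPM in uninjured and 49.1, 18.4, 65.7 and 32.6 CPM in 3 DPI libraries (2.69 ± 0.63, adjusted p = 0.0197, edgeR). The ranges did not overlap, but its counts were 3, 9, 3 and 5 in uninjured and 42, 16, 53 and 28 in 3 DPI libraries. Atp5e therefore passed the count filter through the 3 DPI libraries alone, so its call cannot by itself support a rise. The call was lost in 10 of 18 alternatives, and 1 of 57 was not above the share of all genes. At an unadjusted p under 0.05, 9 members were higher and 0 lower, against 8.66% and 7.72% of all genes. Limma called 6 members higher and 0 lower, against 3.75% and 3.24% of all genes. DESeq2 called 2 higher and 0 lower, against 3.9% and 2.92%, so its count of higher members was near the background. The median was 0.31 in the members and 0.007 over all genes. Without cKO 3 DPI library 3, 6 of 64 members were called higher, but calls over all genes also rose, to 5.16%, and without any 1 of 6 other libraries, 0 were. In this comparison too, 7 of 9 MuSC markers fell and 8 of 9 tested leukocyte markers rose, with medians of -2.0 and 3.79. The part of these in the respiratory chain values was not tested.

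The genotype effect was not shown to differ between injury states. In the interaction, fitted over all 16 libraries, 0 of 74 tested members were called by edgeR, limma or DESeq2. Over all 16822 genes edgeR called 0.0178% lower and 0% higher, limma 0.464% and 0.268%, and DESeq2 0.0892% and 0.0535%. At an unadjusted p under 0.05, 3 members (Atp5e, Ndufv3 and Cox7a2l) were above 0, meaning less reduced or more raised in cKO at 3 DPI, and 0 below, against 3.57% and 2.17% of all genes. Among cKO 3 DPI libraries, library 3 held the highest value of Atp5e (65.7 CPM) and Ndufv3 (131 CPM) and the lowest of Cox7a2l (50.8 CPM). Atp5e had the smallest p, at 2.14 ± 0.68 (adjusted p = 0.582, edgeR). The median of the members was 0.13 and that of all genes was 0.035. By complex the median was 0.21 for complex I, -0.50 for complex II, 0.07 for complex III, -0.06 for complex IV and 0.15 for complex V. All 4 genes of complex II had estimates below 0, and none was called. The ratio of the 3 DPI to the uninjured summed CPM was 0.994 in cKO and 1.52 in control MuSCs for complex II. It was 1.43 and 1.16 for complex I, 1.38 and 1.23 for complex III, 1.42 and 1.25 for complex IV, and 1.34 and 1.32 for complex V. Each ratio of complex II rests in part on a low library. These were cKO 3 DPI library 3, at 128 CPM with Sdha at 1 count, and control uninjured library 3, at 116 CPM. Differences between complexes were not tested. The 2 injury comparisons and this one share libraries with the genotype comparisons.

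Other genes of mitochondrial energy metabolism were read from hand-written lists. Among 7 subunits and carriers outside the symbol rule, 2 of 6 tested fell in cKO uninjured MuSCs, where 2.63% of all genes were called lower and 0.584% higher. They were Etfa (-1.52 ± 0.37, adjusted p = 0.00859, edgeR) and Etfb (-1.56 ± 0.42, adjusted p = 0.0172), the pair of subunits of the flavoprotein that carries electrons from fatty acid oxidation, and the list's median was -0.80. In control MuSCs after injury, Cycs, cytochrome c, was the 1 of 7 tested that rose (0.99 ± 0.28, adjusted p = 0.00578, edgeR), where 10.8% of all genes were called higher. Of 17 genes of the TCA cycle and pyruvate dehydrogenase, Pdhb fell in cKO uninjured MuSCs (-1.50 ± 0.40, adjusted p = 0.0182, edgeR), with a median of -0.36, and Mdh2 was the 1 gene of this list that rose after injury in control MuSCs. Assembly factors of the 5 complexes had 0 of 28 tested called between genotypes in uninjured MuSCs, with a median of -0.06, and 1 of 33 called after injury in control MuSCs, Atpif1, the inhibitor of ATP synthase (1.74 ± 0.28, adjusted p = 2.22e-06, edgeR). Of all genes 10.8% were called higher after injury in control MuSCs, so the shares of the assembly factors and of the TCA cycle list were below that background.

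No regulator passed the test. Of 15 tested genes of mitochondrial biogenesis and transcription, 0 were called in uninjured MuSCs, with a median of -0.03. Ppargc1a, the coactivator known for raising mitochondrial content, was at 15.1 to 49.7 CPM in control and 20.4 to 43.8 CPM in cKO libraries, and Nrf1, Gabpa and Esrra also overlapped between genotypes. Of 7 tested genes of coenzyme Q synthesis, 0 were called. The cytosolic ribosomal proteins (symbols starting with Rpl or Rps and a digit, which also take in a few ribosomal S6 kinases) had 58 of 90 tested members lower in cKO uninjured MuSCs and a median of -0.92, while the mitochondrial ribosomal proteins had 0 of 46 called and a median of -0.14. The share of all genes called lower there was 2.63%. After injury in control MuSCs the cytosolic ribosomal proteins had 42 of 92 lower and 2 higher, where 9.46% and 10.8% of all genes were called. Their median was -0.59, opposite in sign to the respiratory chain members.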

How the data were processed

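MuSCs were sorted as negative for CD45, CD31, CD11b and Sca1 and positive for VCAM (or CD34) and α7-integrin. Libraries were made with the CORALL total RNA kit from 1 ng of RNA depleted of ribosomal RNA. The submitters' processing notes name Trim Galore 0.6.7, STAR 2.6.1d and Salmon 1.5.2 with GRCm38 (mm10), and the authors deposited estimated counts per gene, not normalized, and a second table holds abundances scaled back to library totals, used here for per-length levels. Whether unique molecular identifiers collapsed duplicate reads is not given in the sources used here, so counts may include duplicate reads.

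Estimated counts were rounded. CPM were scaled by TMM over all 16 libraries, whereas each comparison was scaled, filtered (filterByExpr) and fitted on its own 8 libraries (the interaction on 16) with edgeR 4.0.16's robust quasi-likelihood test in R 4.3.3, so fitted fold changes can differ from ratios of mean CPM. P-values were adjusted over all genes tested (Benjamini-Hochberg). Calls required an adjusted p below 0.02 with a fold change above 1.5. The SE is the log2 fold change divided by the square root of the F statistic, and log2 CPM had a prior count of 2. The fit was tested on simulated data, where calls had the right sign but fewer changed genes were found in the comparisons that hold the cKO 3 DPI libraries. Apart from the changed genes, all simulated libraries shared the same base profile. The simulation therefore did not copy the missing genes of cKO 3 DPI library 3. The interaction was not simulated. Alternatives were limma 3.58.1, DESeq2 1.42.0, other scalings and filters, the rescaled table, a length trend removed by lowess (span 0.3), a replicate block and each library left out. Gene positions and lengths came from GENCODE M21 (82 of 83 members matched; Atp5o did not). Reads of genes with near-identical copies or pseudogenes could have been split by the quantification.

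Named members were those called (at most 6 per direction, or else the 2 smallest p per direction), the 2 most abundant per complex, a set of landmark and isoform genes, and members whose genotypes did not overlap in both injury states. Membership of a gene follows from its symbol alone, but this gene family and the lists were picked for description with earlier results of these data known. Values of 1 member are not reported here, although it is counted in the totals.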

Additional observations from a re-analysis of the deposited data

Results flagged for a closer look

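Of 128 groups of 4 libraries examined (complex sums and named members, in CPM), 6 held 1 library far from the other 3, or 4.69%, and chance alone gives about 1 in 20. Atp5k was at 5.81 CPM in control uninjured library 3 against 18.9 to 21.4 CPM in the other 3. It was also low, at 1.43 CPM, in cKO uninjured library 3 against 12.3 to 14.2 CPM. Cox7a2 was at 29.98 CPM in cKO 3 DPI library 2 against 5.84 to 9.32 CPM. Ndufv1 was at 61.3 CPM in cKO uninjured library 2 against 35.5 to 39.5 CPM. Sdhb was at 67.8 CPM in cKO 3 DPI library 1 against 38.4 to 42.7 CPM. Uqcrq was at 24.3 CPM in cKO uninjured library 3 against 9.35 to 11.8 CPM.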

How the results depend on the processing

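The count of members lower in cKO uninjured MuSCs (5) was 8 at an adjusted p under 0.05 with no minimum fold (3.77% of all genes), 1 with library size alone (1.51%), 9 with no filter (2.14%), 0 in the rescaled table (0.0654%), 2 with the length trend removed (2.51%), 8 with the replicate block (3.19%) and 0 with all 16 libraries in 1 fit (0.416%). It ranged from 0 to 5 when 1 library was left out, at 0 without control library 1 (1.43% of all genes), 1 without control library 2 (1.5%), 2 without cKO library 1 (1.63%), and 3 without control library 4 (1.56%), cKO library 2 (2.23%) or cKO library 3 (1.73%), against 2.63% with all libraries. The median (-0.53) was -0.33 with library size alone, where that of all genes was 0.244, -0.28 with the length trend removed and -0.72 with all 16 libraries in 1 fit, and from -0.70 (without cKO library 2) to -0.51 when 1 library was left out. At 3 DPI limma called 3 members lower (0.124% of all genes) and DESeq2 1 (0.117%). After injury in control MuSCs, the members lower (2) were 1 with library size alone (6.94% of all genes), in the rescaled table (6.04%) and with the replicate block (8.46%). They were 0 with all 16 libraries in 1 fit (4.36%), and 1 to 2 when 1 library was left out (7.39% to 10.4%). They were 1 without control uninjured libraries 1 or 2 or 3 DPI libraries 2, 3 or 4. The members higher (13) were 21 with library size alone (13% of all genes), 4 in the rescaled table (6.06%), 6 with the length trend removed (9.91%) and 1 with all 16 libraries in 1 fit (5.12%). They were 7 to 17 when 1 library was left out (8.45% to 10.0%), at 7 without control 3 DPI library 2 (8.77%). The median (0.41) was 0.19 with the length trend removed. After injury in cKO MuSCs, the member higher (1) became 6 with limma (3.75% of all genes), 2 with DESeq2 (3.9%) and 5 with all 16 libraries in 1 fit (4.29%). It became 0 with no filter (1.47%), the rescaled table (1.01%), the length trend removed (2.74%) or the replicate block (1.51%). The count was 0 to 6 when 1 library was left out (1.39% to 5.16%). The ratio of cKO to control for complex II in uninjured MuSCs (0.857), an alternative chosen after seeing the data, ranged from 0.737 to 0.94 when 1 library was left out. In the rescaled table its direction turned, with a mean of 301 in cKO and 284 in control. The cause was not tested. Replicate numbers did not pair the samples, with correlations of same-numbered libraries between -0.11 and 0.111.

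Signs changed for a few uncalled estimates. Sdha in uninjured MuSCs was at 0.16 with library size alone and 0.04 with at least 10 counts in every library, and ranged from -0.25 to 0.11 when 1 library was left out. At 3 DPI Ndufs1 was at 0.37, Uqcrc1 at 0.04 and Ndufv3 at -0.01 in the 4 libraries sharing a description code, Uqcrc1 was at 0.12 with the length trend removed, Ndufv1 was at -0.12 with the replicate block and from -0.28 to 0.45 when 1 library was left out, and Ndufs1 ranged from -0.75 to 0.19 (without cKO library 3) when 1 library was left out. At this depth, members at a few counts per library could not show moderate differences.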
